A study of Mus musculus with 8 samples.

Results

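The 7 genes described here are those whose products, or whose enzymatic products, are read on the cell surface to follow mouse fibroblasts on their way to pluripotency: Thy1, Cd44, Icam1, Epcam, Alpl, Fut4 and Fut9. They were taken by symbol from a table of 26930 genes, and each of the 7 was found there once and passed the filter on low counts that 15789 genes passed. The cells were mouse embryonic fibroblasts on day 8 of reprogramming with the OKSM factors (Oct4, Klf4, Sox2 and Myc) in a medium labelled AGi, and they fell into 4 groups of 2 RNA-seq libraries. K36M cells, named for a histone H3 in which a methionine takes the place of a lysine that is normally methylated, were under TGF-beta1 at 2.5 ng/ml or under Repsox, which blocks the type I receptor of TGF-beta, at 250 nM. WT cells, also labelled H3, were under the same 2 treatments. All 4 groups carried the reprogramming conditions, and no group without TGF-beta1 or Repsox was analysed here, so a difference between the media cannot be assigned to either agent alone. How the factors and the mutant histone were delivered, is not given in the sources used here. Nor is it given that a group's 2 libraries were grown as separate cultures, so the spread that enters the p-values may be technical. Gene counts cannot tell a mutant histone transcript from a normal one, so the genotype labels were not checked by that route.

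Fibroblasts entering reprogramming carry Thy1, a glycolipid-anchored glycoprotein of fibroblasts, T cells and neurons, and Cd44, the main receptor for hyaluronan. Cells that advance lose Thy1, then lose Cd44 and gain Icam1, an adhesion protein bound by leukocyte integrins, and these markers are used to sort intermediates. Epcam, an adhesion molecule of epithelia and embryonic stem cells, comes up as cells pass from a mesenchymal to an epithelial form. Alpl encodes the tissue-nonspecific alkaline phosphatase, a glycolipid-anchored enzyme that stains pluripotent colonies and also works in bone. Fut4 and Fut9 are Golgi fucosyltransferases rather than surface proteins. They build the Lewis X glycan that antibodies to SSEA1 recognise, and Fut9 is the enzyme that makes it in mouse embryonic stem cells. Transcripts, not surface proteins or glycans, were measured.

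Promoters are printed for 3 genes: Epcam, which of the 4 groups was lowest in WT under TGF-beta, Cd44, which was highest there, and Icam1. Icam1 moved in opposite directions with the medium in the 2 genotypes, as Thy1 and Epcam also did. Each runs from 250 bases before to 50 bases after the RefSeq start on its gene's own strand, comes from RefSeq's promoter set and was found once, letter for letter, in mm9. Capitals mark every match, on either strand, to 4 motifs: CACCTG (complement CAGGTG), the E-box of ZEB and SNAI repressors; ACCGGT, the core bound by grainyhead factors; GGAAANNCC, an NF-kB form; and GGGCGG (complement CCGCCC), the GC box of SP and KLF factors. Positions are those of a match's first base, counted from 0 at the start. Epcam (chr17:88035069-88035368, plus strand) had the E-box at -187 and -19, ACCGGT at -174 and -131 and the GC box at -58. Icam1 (chr9:20820134-20820433, plus strand) had the E-box at -204, GGAAANNCC at -153 and -84 and the GC box at -17 and 23. Cd44 (chr2:102741773-102742072, minus strand) had the GC box at 3. None of the capitalised matches overlap.
Epcam promoter: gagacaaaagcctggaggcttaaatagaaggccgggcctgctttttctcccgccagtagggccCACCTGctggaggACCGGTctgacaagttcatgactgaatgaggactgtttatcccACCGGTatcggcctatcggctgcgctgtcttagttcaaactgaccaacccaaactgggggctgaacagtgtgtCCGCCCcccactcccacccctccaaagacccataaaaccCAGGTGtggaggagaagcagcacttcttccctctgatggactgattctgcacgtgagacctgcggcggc
Icam1 promoter: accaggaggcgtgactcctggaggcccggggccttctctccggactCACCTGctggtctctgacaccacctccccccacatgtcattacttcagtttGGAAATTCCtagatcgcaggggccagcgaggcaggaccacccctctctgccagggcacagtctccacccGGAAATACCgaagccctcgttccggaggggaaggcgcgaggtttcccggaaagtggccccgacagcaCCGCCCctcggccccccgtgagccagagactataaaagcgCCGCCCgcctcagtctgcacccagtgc
Cd44 promoter: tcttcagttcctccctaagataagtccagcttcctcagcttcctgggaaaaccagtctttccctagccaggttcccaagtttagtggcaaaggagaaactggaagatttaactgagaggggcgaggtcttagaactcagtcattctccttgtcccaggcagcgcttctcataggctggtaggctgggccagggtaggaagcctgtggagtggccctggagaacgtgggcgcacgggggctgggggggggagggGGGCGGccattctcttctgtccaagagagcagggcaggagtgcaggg

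Among 32544 RefSeq promoters of this length, CACCTG was present in 20.3%, ACCGGT in 2.3%, GGAAANNCC in 5.8% and GGGCGG in 35.9%. Of the 7 genes, 5 had a promoter in the set, the others being Thy1 and Fut9. CACCTG was in 4 of the 5 (Epcam, Icam1, Fut4 and 1 of the 2 Alpl promoters), GGAAANNCC in Icam1 and Fut4, ACCGGT in Epcam, and GGGCGG in Epcam, Icam1, Cd44 and the other Alpl promoter. The SMAD box CAGAC, in 49.5% of promoters, was in Epcam (where it overlaps an ACCGGT), Icam1 and Fut4, and the AP-1 form TGANTCA, in 7.8%, was in none of the 5. Binding was not measured. Grhl2, a grainyhead factor of epithelia chosen after its values were seen, averaged 47.1 ± 3.77 CPM in K36M under TGF-beta, 54.9 ± 7.57 in K36M under Repsox, 3.31 ± 1.53 in WT under TGF-beta and 28.4 ± 2.6 in WT under Repsox (counts scaled to the TMM-adjusted library size, SD, n = 2 each). Snai2, a SNAI repressor chosen in the same way, averaged 0.565 ± 0.305, 0.146 ± 0.0206, 7.04 ± 1.12 and 14.6 ± 2.18 CPM in that order. It was highest in WT under Repsox, whereas Epcam was lowest in WT under TGF-beta.

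The libraries held 10928302 to 15594217 counts. The 2 libraries of a group correlated across genes at a Spearman's rho of 0.9707 to 0.9748 and differed by more than counting error (chi-square per degree of freedom 2.703 to 9.093). As a check on the label of reprogramming intermediate, 8 fibroblast markers summed to 865.9 and 877.7 CPM in K36M under TGF-beta, 192.4 and 227.7 in K36M under Repsox, 10618.4 and 11881.2 in WT under TGF-beta, and 3224.8 and 2948.4 in WT under Repsox. The sums of 8 pluripotency markers were 694.5 and 701.7, 1144.8 and 1118.0, 30.3 and 19.9, and 997.0 and 835.7 CPM in the same order. The fibroblast sums rested mostly on Vim, Col1a1 and Col1a2, which with Col3a1 were higher under TGF-beta than under Repsox in WT. The other fibroblast markers, Pdgfra, Pdgfrb, Prrx1 and Twist1, were lower under TGF-beta in WT. They averaged 3.22, 42.3, 121.6 and 18.9 CPM there against 54.8, 78.7, 252.7 and 39.0 CPM in WT under Repsox. Each group thus held fibroblast transcripts, and pluripotency transcripts were fewest in WT under TGF-beta. The pluripotency sum there rested mostly on Nanog (13.9 and 3.23 CPM) and Sall4 (9.81 and 8.69 CPM). Zfp42 had 1 and 0 counts there and Dppa4 1 and 3, so that group did not hold the set as a whole.

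**Figure D1:**
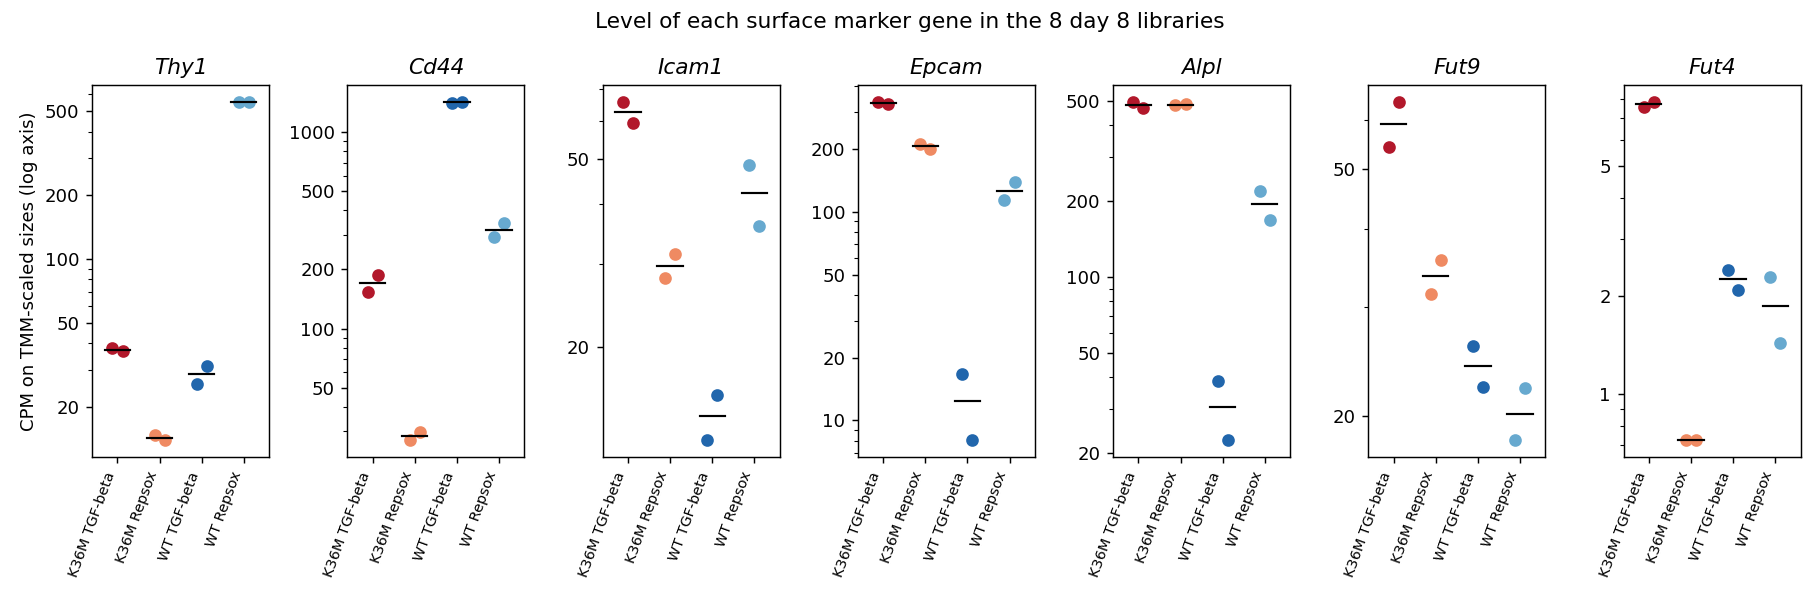
Level of each of the 7 genes in the 8 libraries, in CPM on TMM-scaled library sizes with a logarithmic axis for each gene; points are libraries and bars are the means of the 2 libraries of a group. Thy1 stands alone in WT under Repsox at 551.1 CPM and Cd44 is highest in WT under TGF-beta at 1418.2 CPM, while Epcam and Alpl are lowest in WT under TGF-beta.

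Of the 7 markers, Thy1 differed the most between the WT media. It stood at 37.9 and 36.7 CPM in K36M under TGF-beta, 14.7 and 13.9 in K36M under Repsox, 25.7 and 31.2 in WT under TGF-beta, and 552.4 and 549.7 in WT under Repsox. WT cells under Repsox thus stood far above the other 3 groups, and no 2 groups overlapped. In bulk RNA, fewer cells that express a gene and less RNA per cell cannot be told apart. Under Repsox, Thy1 was 38.4-fold lower in K36M than in WT (log2 -5.26 ± 0.10 SE, edgeR quasi-likelihood adjusted p = 2.21e-20). Only 0.868% of tested genes were lower by as much in that comparison. Under TGF-beta, Thy1 was 1.3-fold higher in K36M than in WT (log2 0.38 ± 0.10, adjusted p = 0.00152), a call that was lost without the first WT library under TGF-beta (log2 0.25, adjusted p = 0.0713). Under TGF-beta it was 2.6-fold higher than under Repsox in K36M (log2 1.38 ± 0.11) and 19.3-fold lower in WT (log2 -4.27 ± 0.10). Thy1 (chr9:43851467-43856662, plus strand, 1 transcript and 4 exons in GENCODE vM1 on mm9) is also a T cell and neuron gene. The 7 T cell markers summed to 5.7 and 6.2, 8.43 and 9.73, 0.775 and 0.79, and 12.6 and 11.8 CPM in the 4 groups, highest in WT under Repsox as Thy1 was. Lck, a T cell kinase, made up most of that sum, at 171 and 144 counts in WT under Repsox, while the T cell receptor chains Cd3e, Cd3d and Cd3g had 0 to 2 counts there. Cd3d was at 0 in WT under Repsox, Cd3g in K36M under TGF-beta, and all 3 chains in WT under TGF-beta. The part of such cells in the Thy1 level was not tested. The 5 neuron markers summed to 15.2 and 12.2, 48.9 and 41.2, 138.0 and 139.7, and 40.7 and 43.7 CPM in the same order, highest in WT under TGF-beta, where Thy1 was low. Tubb3, a tubulin, made up most of that sum, at 90.3 ± 0.516 CPM in WT under TGF-beta and 37.7 ± 1.82 in WT under Repsox. The part of neurons in the Thy1 level was not tested either.

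Cd44, the other fibroblast marker, followed a different order. It stood at 153.3 and 188.1 CPM in K36M under TGF-beta, 27.0 and 29.8 in K36M under Repsox, 1408.3 and 1428.2 in WT under TGF-beta, and 294.4 and 343.1 in WT under Repsox. Every group was separated from its neighbours, over a 49.9-fold range from WT under TGF-beta to K36M under Repsox. Cd44 was lower in K36M than in WT by 8.31-fold under TGF-beta (log2 -3.06 ± 0.09, adjusted p = 4.99e-18) and by 11.2-fold under Repsox (log2 -3.49 ± 0.10, adjusted p = 1.08e-17). It was higher under TGF-beta than under Repsox by 6.01-fold in K36M (log2 2.59 ± 0.10) and by 4.45-fold in WT (log2 2.15 ± 0.09). Cd44 (chr2:102651298-102741822, minus strand) has 14 annotated transcripts, and a gene count does not tell its variable-exon isoforms apart. Esrp1, an epithelial splicing regulator of Cd44 chosen after its values were seen, was higher in K36M than in WT in both media, with log2 fold changes of 5.54 and 1.28.

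Under TGF-beta set against Repsox, the 2 fibroblast markers thus differed in the same direction in K36M cells and in opposite directions in WT cells. For each Cd44 read a K36M library had 0.247 or 0.195 Thy1 reads under TGF-beta and 0.546 or 0.466 under Repsox. In WT there were 0.0183 or 0.0219 under TGF-beta and 1.88 or 1.6 under Repsox.

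Icam1 stood at 65.9 and 59.4 CPM in K36M under TGF-beta, 27.9 and 31.4 in K36M under Repsox, 12.7 and 15.8 in WT under TGF-beta, and 48.5 and 36 in WT under Repsox. The 2 WT libraries under Repsox lay apart, but no 2 groups overlapped. Under TGF-beta, Icam1 was 4.37-fold higher in K36M than in WT (log2 2.13 ± 0.14, adjusted p = 8.84e-12). Under Repsox it was 1.43-fold lower in K36M (log2 -0.52 ± 0.13, adjusted p = 0.00215), and this call was lost without the first WT library under Repsox (log2 -0.29, adjusted p = 0.067). Between media, Icam1 was 2.12-fold higher under TGF-beta in K36M (log2 1.08 ± 0.13) and 2.95-fold lower in WT (log2 -1.56 ± 0.14). Icam1 (chr9:20820404-20833241, plus strand) shares 491 exonic bases with an antisense model, Gm20603 in the table. That model held 8 to 34 counts in any library against 148 to 843 for Icam1.

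Epcam stood at 337.3 and 328.5 CPM in K36M under TGF-beta, 212.8 and 200.4 in K36M under Repsox, 16.7 and 8.04 in WT under TGF-beta, and 114.1 and 138.9 in WT under Repsox. All 4 groups were separate. The WT libraries under TGF-beta were the lowest and, as a ratio, also differed the most between themselves. Epcam was 27.4-fold higher in K36M than in WT under TGF-beta (log2 4.78 ± 0.17, adjusted p = 1.06e-16). Under Repsox it was 1.64-fold higher (log2 0.71 ± 0.13, adjusted p = 0.000101), a call that DESeq2 did not make (log2 0.71, adjusted p = 0.111). In K36M it was 1.61-fold higher under TGF-beta than under Repsox (log2 0.69 ± 0.13, adjusted p = 0.000142), again without a call by DESeq2 (log2 0.71, adjusted p = 0.124). In WT it was 10.4-fold lower under TGF-beta (log2 -3.38 ± 0.17, adjusted p = 6.06e-14). Epcam (chr17:88035319-88050446, plus strand) has 1 transcript, and its exons overlap no other annotated gene. Epcam also marks trophoblast, whose 7 markers summed to 269.8 and 257.9, 803.9 and 753.3, 6.03 and 6.96, and 289.0 and 259.3 CPM in the 4 groups. The sum was highest in K36M under Repsox and Epcam in K36M under TGF-beta, and the part of such cells in the Epcam level was not tested.

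Alpl stood at 496.4 and 469.4 CPM in K36M under TGF-beta, 483.2 and 485.1 in K36M under Repsox, 38.6 and 22.5 in WT under TGF-beta, and 220.5 and 168.8 in WT under Repsox. Alpl overlapped between the K36M groups, with a log2 fold change between media of 0.00 ± 0.13 in K36M (95% interval -0.27 to 0.26, adjusted p = 0.987). In WT it was 6.45-fold lower under TGF-beta (log2 -2.69 ± 0.15, adjusted p = 3.93e-13). Alpl was higher in K36M than in WT by 16.0-fold under TGF-beta (log2 4.0 ± 0.15) and by 2.49-fold under Repsox (log2 1.31 ± 0.13, adjusted p = 1.36e-08). Alpl (chr4:137297648-137352299, minus strand) has 8 annotated transcripts from more than 1 start, which the counts pool. Its bone role was set beside 5 osteoblast markers, which summed to 5.78 and 7.69 CPM in K36M under TGF-beta, 3.49 and 3.7 in K36M under Repsox, 56.8 and 55.0 in WT under TGF-beta, and 33.8 and 34.0 in WT under Repsox. The sums were lower in K36M, where Alpl was higher, and rested mostly on Runx2, the early osteoblast factor. Between the WT media, Runx2 was higher under TGF-beta (log2 1.53 ± 0.13), while Sp7, the later factor, was lower as Alpl was, with 4 and 4 counts under TGF-beta and 199 and 172 under Repsox. Dmp1, a bone matrix protein, had 1 and 0 counts in WT under TGF-beta and 16 and 10 in WT under Repsox. Ibsp was at 0 in both K36M groups and Dmp1 in K36M under Repsox, and the part of such cells in the Alpl level was not tested. The other alkaline phosphatase genes were close to absent: Alppl2 had 0 to 5 counts in a library, Akp3 0 to 2 and Alpi 0 or 1.

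Fut4 was the lowest of the 7 and rests on few reads. It had 97 and 90 counts in K36M under TGF-beta, 11 and 9 in K36M under Repsox, 28 and 29 in WT under TGF-beta, and 34 and 19 in WT under Repsox. K36M under TGF-beta was above and K36M under Repsox below every WT library, and the WT groups overlapped. Fut4 was 10.5-fold higher under TGF-beta than under Repsox in K36M (log2 3.40 ± 0.36, adjusted p = 6.44e-08), where 0.982% of tested genes were higher by as much. In WT the log2 fold change was 0.25 ± 0.36 (95% interval -0.49 to 0.99, adjusted p = 0.558). K36M exceeded WT 3.44-fold under TGF-beta (log2 1.78 ± 0.31, adjusted p = 2.41e-05). Under Repsox Fut4 was 2.57-fold lower in K36M (log2 -1.36 ± 0.42, adjusted p = 0.0093). That call was lost without the first K36M library under Repsox (log2 -1.36, adjusted p = 0.05) and without the first WT library under Repsox (log2 -0.98, adjusted p = 0.131). Fut4 (chr9:14552903-14556566, minus strand) is a single-exon gene.

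Fut9 varied the least, over a 2.92-fold range. It stood at 54.2 and 64.1 CPM in K36M under TGF-beta, 31.5 and 35.7 in K36M under Repsox, 25.9 and 22.3 in WT under TGF-beta, and 18.3 and 22.2 in WT under Repsox. Both K36M groups lay above both WT groups. Fut9 was higher in K36M than in WT by 2.46-fold under TGF-beta (log2 1.30 ± 0.13, adjusted p = 5.34e-09) and by 1.66-fold under Repsox (log2 0.73 ± 0.13, adjusted p = 5.84e-05). It was 1.76-fold higher under TGF-beta than under Repsox in K36M (log2 0.82 ± 0.12, adjusted p = 7.39e-06). In WT the log2 fold change was 0.25 ± 0.14 (95% interval -0.03 to 0.53, adjusted p = 0.115), which passed the threshold without the second WT library under Repsox (log2 0.39, adjusted p = 0.0228). Fut9 (chr4:25536479-25727391, minus strand) shares 624 exonic bases with a further Fut9 model on the same strand that has no entry in the table.

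Per kilobase of exon, the leading marker differed between genotypes. In RPKM (CPM per kilobase of the union of a gene's exons), Epcam at 163.2 ± 3.05 and Alpl at 119.7 ± 4.73 led in K36M under TGF-beta, and Alpl at 120.0 ± 0.327 and Epcam at 101.3 ± 4.29 led in K36M under Repsox. In WT under TGF-beta the lead was with Cd44 at 207.0 ± 2.05, and no other marker exceeded the 16.4 ± 2.24 of Thy1. In WT under Repsox, Thy1 at 317.6 ± 1.09 led, ahead of Epcam at 62.0 ± 8.62, Alpl at 48.3 ± 9.07 and Cd44 at 46.5 ± 5.02. Fut9 exceeded Fut4 in each group, with 4.28 ± 0.511 against 2.11 ± 0.0548 RPKM in K36M under TGF-beta and 2.43 ± 0.217 against 0.198 RPKM in K36M under Repsox. In WT the pair stood at 1.74 ± 0.187 and 0.613 ± 0.0633 RPKM under TGF-beta and at 1.46 ± 0.202 and 0.509 ± 0.165 RPKM under Repsox. With the longest transcript as the length, Alpl rather than Epcam had the higher level in K36M under TGF-beta (191.5 against 163.2 RPKM) and the higher of the pair in WT under Repsox (77.2 against 62.0 RPKM).

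**Figure D2:**
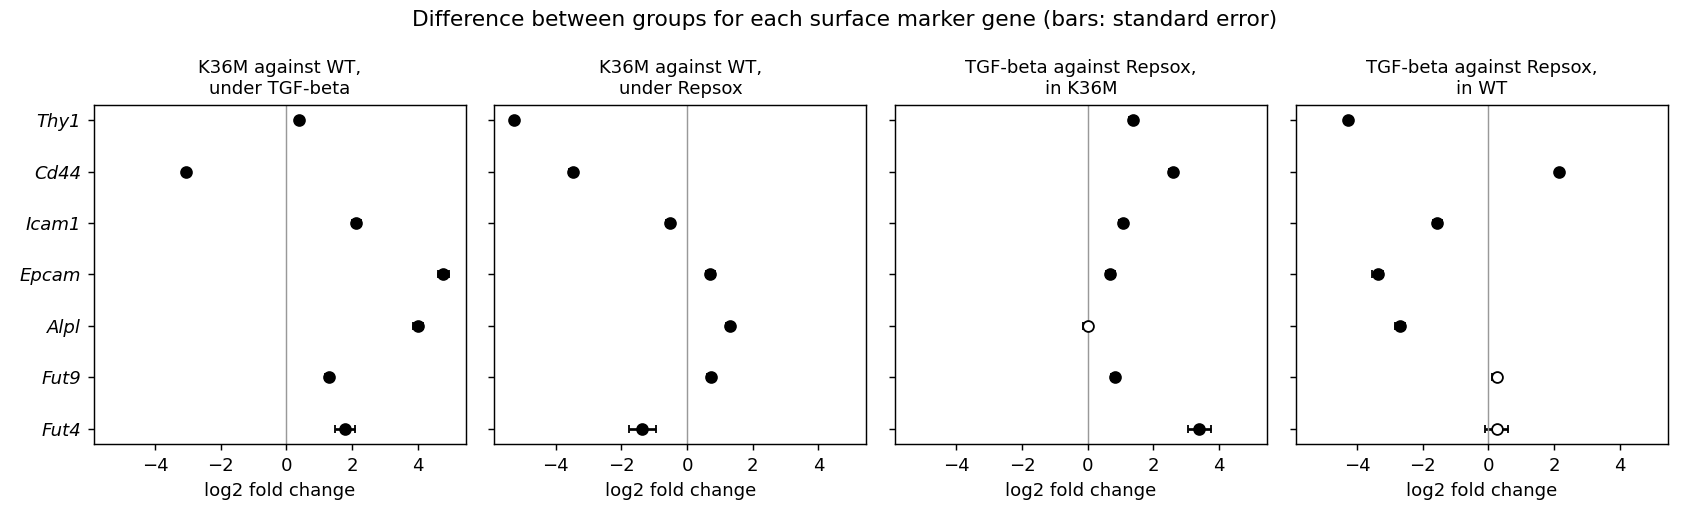
Log2 fold change of each gene in the 4 pairwise comparisons, with bars of 1 SE from edgeR's quasi-likelihood fit over 8 libraries. A value above 0 is higher in K36M, or under TGF-beta. Cd44 is the single gene below 0 for K36M against WT under TGF-beta, and no value in K36M for TGF-beta against Repsox lies below the near-zero one of Alpl.

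K36M was compared with WT under TGF-beta to ask how the mutant histone acted while the pathway was stimulated. Of the 7 markers, 6 were higher and 1, Cd44, was lower, where 70.3% of all tested genes were called, 36.4% higher and 33.9% lower. The count is read against that share, and sizes say more than calls where most genes are called. Epcam and Alpl differed the most, at 27.4-fold and 16.0-fold.

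Under Repsox, where 55.8% of tested genes were called, 28.8% higher and 26.9% lower, K36M had 3 of the 7 markers higher (Epcam, Alpl and Fut9) and 4 lower (Thy1, Cd44, Icam1 and Fut4). Without the first WT library under Repsox, 2 of the 4 lower calls remained. The log2 fold changes of the fibroblast pair, -5.26 ± 0.10 for Thy1 and -3.49 ± 0.10 for Cd44, were larger in size than the 0.71 ± 0.13 of Epcam and the 1.31 ± 0.13 of Alpl.

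TGF-beta was set against Repsox within each genotype to ask how the medium acted. In K36M, 6 of the 7 markers were higher under TGF-beta, 0 were lower and Alpl was not called, where 48.3% of tested genes were called, 24.7% higher and 23.6% lower. This took in both fibroblast markers and Epcam, Icam1, Fut4 and Fut9. In WT, Cd44 was higher under TGF-beta, Thy1, Icam1, Epcam and Alpl were lower, and Fut4 and Fut9 were not called, where 62.4% of tested genes were called, 29.0% higher and 33.4% lower. The 2 medium comparisons share no library.

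The 4 groups were also put in order of each marker's mean CPM, and neighbours in that order were tested in the same fit. The test did not separate neighbours for Alpl between the K36M media and for Fut4 and Fut9 between the WT media. The other neighbours differed for each marker, which for 5 markers took in a pair that differs in both genotype and medium. K36M under TGF-beta lay next to WT under Repsox for Thy1, Cd44, Icam1 and Alpl, and the 2 differed by log2 -3.88 ± 0.09, -0.90 ± 0.09, 0.57 ± 0.13 and 1.31 ± 0.13, where 53.7% of tested genes were called. K36M under Repsox lay next to WT under TGF-beta for Thy1, Icam1 and Fut9, and those 2 differed by log2 -0.99 ± 0.11, 1.04 ± 0.15 and 0.48 ± 0.13, where 72.7% of tested genes were called.

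The interaction, the medium effect in K36M minus that in WT, was above 0 and called for 7 of 7 markers, where 51.0% of tested genes were called, 28.5% above 0 and 22.6% below. It was log2 5.65 ± 0.14 for Thy1, 4.07 ± 0.21 for Epcam, 3.15 ± 0.52 for Fut4, 2.68 ± 0.20 for Alpl and 2.64 ± 0.19 for Icam1. It was smaller for Fut9 (0.57 ± 0.18, adjusted p = 0.0125) and Cd44 (0.43 ± 0.13, adjusted p = 0.00696). For Fut9 the call was lost with DESeq2 (0.54, adjusted p = 0.0514) and without the second K36M library under TGF-beta, the first K36M library under Repsox or the second WT library under TGF-beta (adjusted p = 0.0796, 0.0632 and 0.0785). For Cd44 it was lost without the second K36M library under TGF-beta (0.28, adjusted p = 0.0705) and without the first K36M library under Repsox (0.36, adjusted p = 0.0569).

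**Figure D3:**
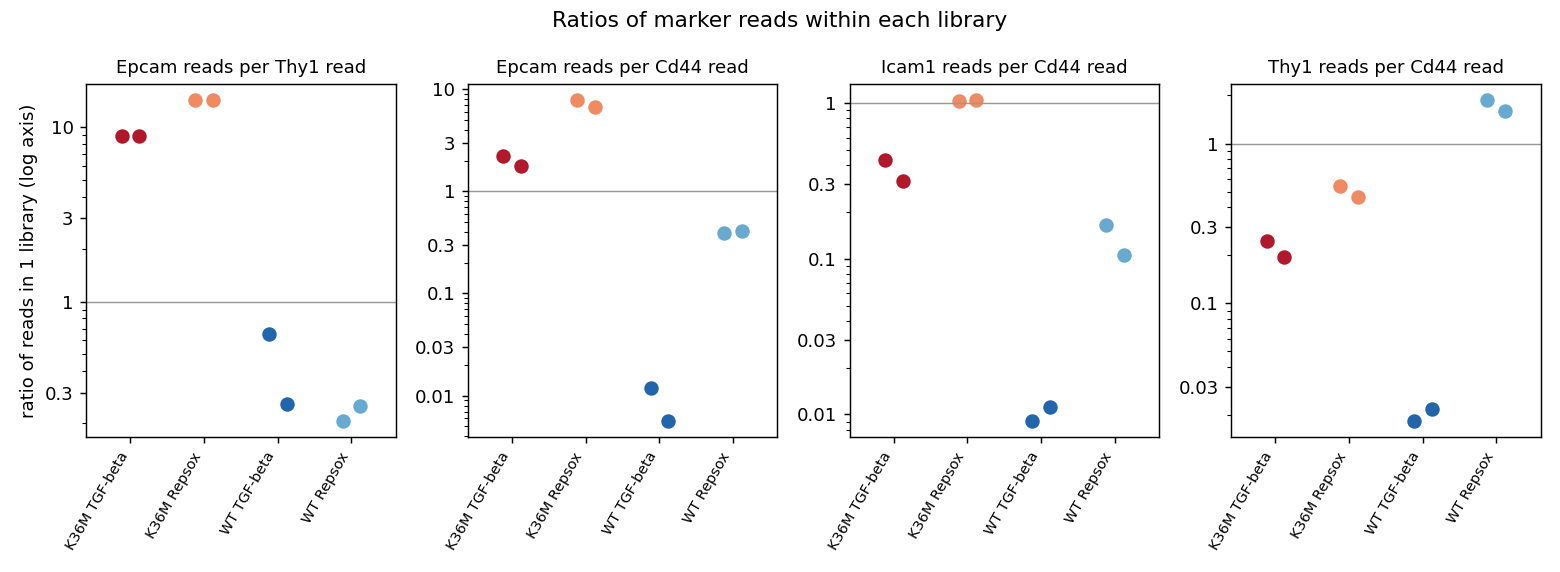
Ratios of the reads of 2 marker genes within each library on logarithmic axes, with a line at 1; points are libraries and gene length is not corrected. Epcam reads exceed Thy1 reads in the 4 K36M libraries and not in the 4 WT libraries.

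Ratios within a library do not depend on how libraries are scaled, and 3 of the next 4 ratios separated all K36M from all WT libraries. For each Thy1 read there were 8.9 and 8.95 Epcam reads in K36M under TGF-beta and 14.4 in both K36M libraries under Repsox, against 0.649 and 0.257 in WT under TGF-beta and 0.206 and 0.253 in WT under Repsox. The lower WT library under TGF-beta lay just above the higher one under Repsox, although both genes were much lower under TGF-beta. For each Cd44 read there were 2.2 and 1.75 Epcam reads in K36M under TGF-beta, 7.88 and 6.72 in K36M under Repsox, 0.0119 and 0.00563 in WT under TGF-beta, and 0.387 and 0.405 in WT under Repsox. This ratio ordered the groups with no overlap.

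Icam1 reads per Cd44 read, the pair used to sort intermediates, were 0.43 and 0.316 in K36M under TGF-beta and 1.03 and 1.05 in K36M under Repsox. They were 0.00905 and 0.0111 in WT under TGF-beta and 0.165 and 0.105 in WT under Repsox. The ratio was higher in K36M than in WT in both media and lower under TGF-beta than under Repsox in both genotypes. Fut9 reads per Fut4 read were 7.14 and 8.16 in K36M under TGF-beta, 43.5 and 49.3 in K36M under Repsox, 10.8 and 10.7 in WT under TGF-beta, and 7.97 and 15.5 in WT under Repsox. K36M under Repsox stood apart on this ratio, where the Fut4 counts were 11 and 9.

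**Figure D4:**
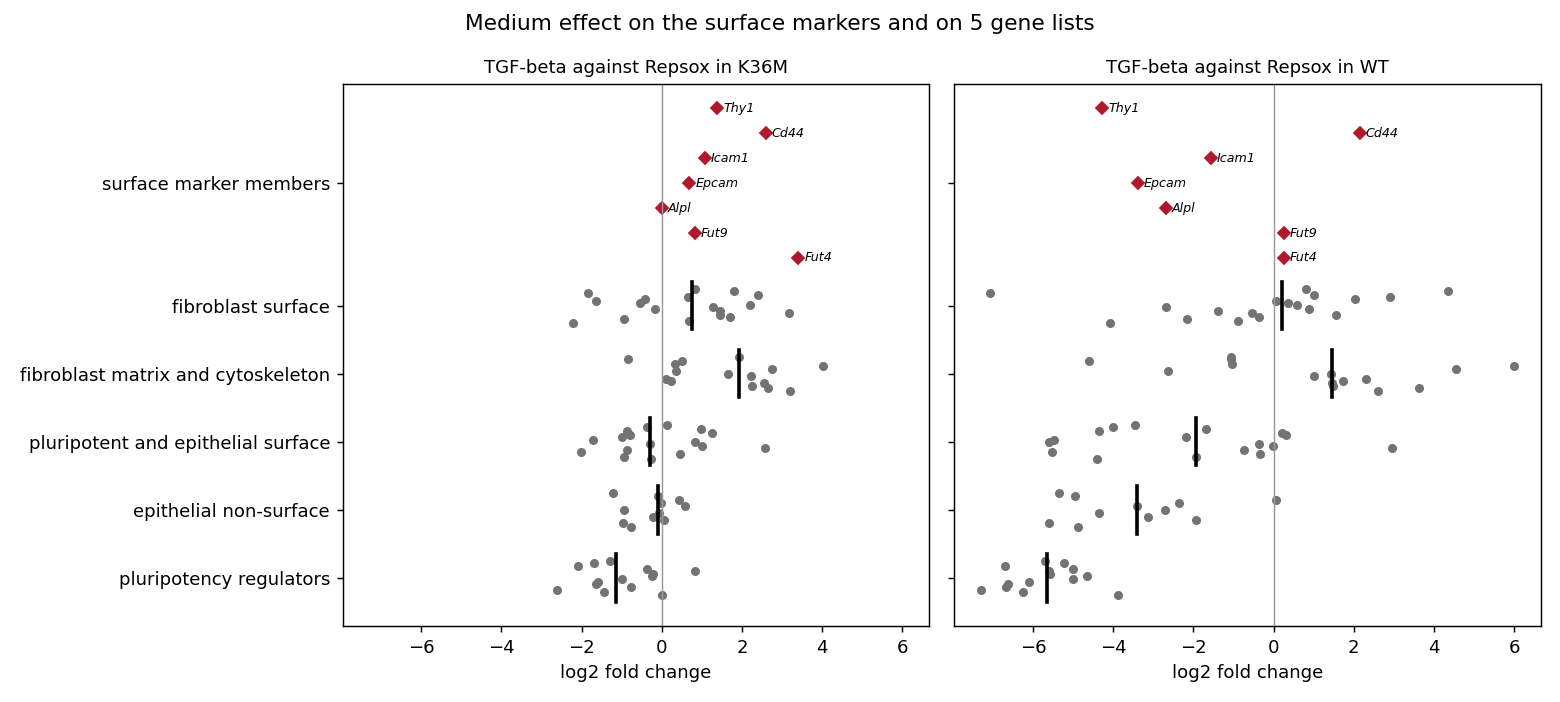
Log2 fold change of TGF-beta against Repsox for the 7 markers (diamonds) and for the tested genes of 5 lists (points, with a bar at the median), in K36M on the left and in WT on the right. In K36M the markers lie at or above 0 while the median of pluripotency regulators is -1.14; in WT the same median is -5.64.

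The markers were set beside the programmes they are used to report. The counts called in each list, here and below, are read against the share of all tested genes called. That share was 70.3% for K36M against WT under TGF-beta and 55.8% under Repsox. Between media it was 48.3% in K36M and 62.4% in WT. Of 14 pluripotency regulators, 14 were higher in K36M than in WT under TGF-beta (median log2 5.42, all tested genes 0.05), and 9 were higher and 1 lower under Repsox (median 0.35, all tested genes 0.04). Between media, 1 of the 14 was higher and 11 were lower under TGF-beta in K36M (median -1.14), and 14 lower in WT (median -5.64), where the medians of all tested genes were 0.01 and -0.07. Tet1, a dioxygenase of methylated DNA, averaged 163.1 ± 5.75 CPM in K36M under TGF-beta, 398.4 ± 2.85 in K36M under Repsox, 8.15 ± 1.06 in WT under TGF-beta and 425.7 ± 16.7 in WT under Repsox. In K36M it was 2.44-fold lower under TGF-beta (log2 -1.29 ± 0.07), and in the same libraries Icam1, Epcam, Fut4 and Fut9 were higher. Tdgf1, a co-receptor of Nodal anchored at the surface, was the 1 regulator that was higher under TGF-beta in K36M (1.77-fold, log2 0.82 ± 0.09).

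The list of epithelial genes, set up as non-surface though it takes in the membrane protein Cldn4, followed Epcam between genotypes and less so between media. All 11 of its genes were higher in K36M under TGF-beta (median 4.01), and 9 were higher under Repsox (median 1.22). In WT, 10 were lower under TGF-beta than under Repsox (median -3.40). In K36M, 1 was higher, 3 were lower and 7 were not called (median -0.09), while Epcam was higher by log2 0.69. Krt18, a keratin of simple epithelia, averaged 726.6 ± 38.7 CPM in K36M under TGF-beta, 1418.4 ± 61.6 in K36M under Repsox, 10.6 ± 1.42 in WT under TGF-beta and 515.3 ± 52.0 in WT under Repsox. It was lower under TGF-beta in both genotypes, with log2 fold changes of -0.96 ± 0.07 in K36M and -5.60 ± 0.10 in WT.

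Of 15 fibroblast matrix and cytoskeleton genes, 13 were lower in K36M than in WT under TGF-beta and 13 under Repsox, with medians of -2.98 and -3.73. Under TGF-beta set against Repsox, 10 were higher and 1 lower in K36M (median 1.92) and 10 higher and 5 lower in WT (median 1.45). Without the second K36M library under Repsox, 8 were higher and 0 lower in K36M. Tagln, an actin-binding protein induced by TGF-beta, averaged 176.4 ± 5.21 CPM in K36M under TGF-beta, 10.9 ± 0.363 in K36M under Repsox, 628.3 ± 21.1 in WT under TGF-beta and 9.9 ± 0.746 in WT under Repsox. Prrx1, a mesenchymal homeobox factor, was lower under TGF-beta in both genotypes, with log2 fold changes of -0.84 ± 0.21 in K36M and -1.05 ± 0.11 in WT, the direction that Thy1 took in WT and not in K36M.

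Other surface genes of fibroblasts did not move as a block. Of 18, 5 were higher and 11 lower in K36M than in WT under TGF-beta (median -1.17), and 1 was higher and 14 lower under Repsox (median -1.29). Between media, 11 were higher and 4 lower under TGF-beta in K36M (median 0.75), and 7 were higher and 8 lower in WT (median 0.21). Ncam1, a neural cell adhesion molecule, averaged 17.3 ± 3.64 CPM in K36M under TGF-beta, 4.9 ± 0.793 in K36M under Repsox, 559.4 ± 32.9 in WT under TGF-beta and 27.3 ± 0.884 in WT under Repsox, highest in WT under TGF-beta as Cd44 was. Itgb1, a matrix-binding integrin chain, was 7.41-fold higher under TGF-beta in WT (log2 2.89 ± 0.06). Nt5e, a surface nucleotidase, was 9.07-fold higher under TGF-beta in K36M (log2 3.18 ± 0.17) and 1.46-fold lower in WT (log2 -0.55 ± 0.17), the signs seen for Thy1.

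Among 17 tested surface genes of pluripotent and epithelial cells, K36M had 14 higher and 3 lower than WT under TGF-beta (median 2.38) and 11 higher and 5 lower under Repsox (median 0.40). Between media there were 6 higher and 10 lower in K36M (median -0.29) and 3 higher and 13 lower under TGF-beta in WT (median -1.93). With library totals and no TMM factors, 1 rather than 3 was higher in WT. Cdh1, the epithelial cadherin, averaged 1118.5 ± 12.7 CPM in K36M under TGF-beta, 1357.9 ± 35.6 in K36M under Repsox, 32.1 ± 12.7 in WT under TGF-beta and 673.2 ± 9.65 in WT under Repsox. It was lower under TGF-beta in K36M (log2 -0.28 ± 0.11), where Epcam was higher. Cd24a, a glycolipid-anchored sialoglycoprotein, was like Cd44 highest in WT under TGF-beta and lowest in K36M under Repsox, with 107.3 ± 4.44, 18.1 ± 0.0967, 720.9 ± 24.7 and 93.3 ± 20.7 CPM in the same order.

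The genes around each marker were read in the same fit. For Cd44, Has2, the hyaluronan synthase, had 95 and 101 counts in K36M under TGF-beta, 1 and 0 in K36M under Repsox, 1487 and 1809 in WT under TGF-beta, and 82 and 76 in WT under Repsox. It was 15.9-fold lower in K36M than in WT under TGF-beta (log2 -3.99 ± 0.13) and 22.9-fold higher under TGF-beta than under Repsox in WT (log2 4.52 ± 0.13). The adaptors that link Cd44 to actin split: moesin (Msn) was higher under TGF-beta in K36M and WT (log2 1.32 ± 0.06 and 2.31 ± 0.06), and ezrin (Ezr) was lower (log2 -0.47 ± 0.07 and -2.21 ± 0.07). Spp1, the secreted Cd44 ligand osteopontin, averaged 622.7 ± 80.9 CPM in WT under Repsox and 11.0 ± 5.9 to 77.9 ± 8.33 CPM in the other groups. Its highest group was thus that of Thy1 and not that of its receptor. In K36M it was lower under TGF-beta than under Repsox (log2 -1.09 ± 0.16), where Thy1 was higher. Of the 15 tested hyaluronan and Cd44 genes, K36M had 7 higher and 6 lower than WT under TGF-beta, and 5 higher and 6 lower under Repsox. Between media, 8 were higher and 3 lower under TGF-beta in K36M, and 7 were higher and 7 lower in WT.

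For Icam1, 14 targets and regulators of NF-kB were read. Between media, 7 were higher and 2 lower under TGF-beta in K36M (median 0.49), and 2 were higher and 6 lower in WT (median -0.46). Against WT, K36M had 5 higher and 7 lower under TGF-beta (median -0.06), and 1 higher and 8 lower under Repsox (median -0.58). Irf1, an interferon regulatory factor, averaged 40.6 ± 0.471 CPM in K36M under TGF-beta against 13.3 ± 1.46 in K36M under Repsox, 19.3 ± 2.91 in WT under TGF-beta and 15.5 ± 0.565 in WT under Repsox. Cxcl10, a chemokine, had 153 and 152 counts in K36M under TGF-beta, 19 and 18 in K36M under Repsox, 1 and 3 in WT under TGF-beta, and 11 and 5 in WT under Repsox. Tnfaip3, an inhibitor of NF-kB signalling, was higher under TGF-beta in both genotypes (log2 1.68 ± 0.16 and 1.47 ± 0.14), unlike Icam1 in WT. Vcam1, the other endothelial and fibroblast integrin ligand, was 43.3-fold lower in K36M than in WT under TGF-beta (log2 -5.43 ± 0.14), where Icam1 was higher. Among other genes of its family, Icam2 had 0 to 4 counts and Icam5 1 to 22 counts in a library. Of the leukocyte integrin chains that bind Icam1, Itgal and Itgb2 were low, averaging 0.971 to 3.76 and 0.361 to 2.73 CPM over the groups. Itgam averaged 12.7 ± 1.74 CPM in WT under TGF-beta and 0.589 to 1.28 CPM in the other groups. In WT it was higher under TGF-beta than under Repsox (log2 3.33 ± 0.37), where Icam1 was lower.

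For Epcam, Cldn7, the claudin that Epcam binds, was 35.2-fold higher in K36M than in WT under TGF-beta (log2 5.14 ± 0.19) and 2.82-fold higher under Repsox (log2 1.49 ± 0.12). Spint1 and Spint2, inhibitors of the matriptase that cleaves Epcam, were higher in K36M under TGF-beta by log2 4.76 ± 0.15 and 3.6 ± 0.10. St14, the matriptase itself, chosen after its values were seen, was also higher there (log2 2.8 ± 0.09). Cleavage was not measured. The full list, which includes the sheddase and gamma-secretase genes that cut Epcam, had 6 higher and 7 lower of 15 in K36M under TGF-beta, and 7 higher and 1 lower under Repsox. Between media, 3 were higher and 8 lower under TGF-beta in K36M and 6 were higher and 7 lower in WT. Without the first K36M library under TGF-beta, or without the second under Repsox, 1 was higher and 7 were lower in K36M.

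For Alpl, 9 genes of phosphate handling and glycolipid anchoring were tested. In K36M, 1 was higher and 7 were lower than in WT under TGF-beta (median -0.84), and 1 was higher and 5 were lower under Repsox (median -0.50), whereas Alpl itself was higher in both. Between media, 1 was higher and 3 were lower under TGF-beta in K36M, and 2 were higher and 4 lower in WT. Ank, a transporter that supplies the pyrophosphate Alpl hydrolyses, was lower in K36M than in WT in both media (log2 -1.39 ± 0.11 and -1.31 ± 0.09). It was also lower under TGF-beta in both genotypes (log2 -1.62 ± 0.11 in K36M and -1.54 ± 0.09 in WT).

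For Fut4 and Fut9, 14 tested genes of fucosylation had 5 higher and 8 lower in K36M than in WT under TGF-beta (median -0.39), and 2 higher and 5 lower under Repsox (median -0.12). Between media, 3 were higher and 3 lower under TGF-beta in K36M (median 0.11), and 6 were higher and 3 lower in WT (median 0.20), a split of 3 and 3 with library totals and no TMM factors. The calls between media lay near the shares of all tested genes called, 48.3% in K36M and 62.4% in WT. Fut8, which adds core fucose to N-glycans, was 2.02-fold lower in K36M under TGF-beta (log2 -1.02 ± 0.10), and Fut10 was lower in K36M in both media (log2 -1.24 ± 0.19 and -2.33 ± 0.22). Fut11 was higher in K36M under TGF-beta (log2 0.65 ± 0.17), and its value under Repsox was -0.12 ± 0.16. Fut1 and Fut2, which make H antigens, had 0 to 21 and 3 to 60 counts in a library, and Fut7 had 0 to 2. Slc35c1, the Golgi carrier of the fucose donor, was 2.08-fold lower under TGF-beta in K36M (log2 -1.06 ± 0.12), where Fut4 and Fut9 were higher.

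The lactosamine chain that the 2 enzymes fucosylate was read through 14 genes, with 7 higher and 6 lower in K36M than in WT under TGF-beta and 7 higher and 4 lower under Repsox (medians 0.45 and 0.22). Between media, 3 were higher and 5 lower under TGF-beta in K36M, and 3 were higher and 9 lower in WT (medians -0.08 and -0.68). B3gnt3 and B3gnt7, which extend such chains, were 39.2-fold and 34.8-fold higher in K36M than in WT under TGF-beta (log2 5.29 ± 0.27 and 5.12 ± 0.16). B3gnt7 averaged 79.2 ± 9.51, 90.3 ± 6.61, 2.24 ± 0.489 and 73.8 ± 2.98 CPM in the 4 groups taken as above, so that it was low in WT under TGF-beta and close in the other 3. B4galt1, a galactosyltransferase, was 1.48-fold lower in K36M under TGF-beta (log2 -0.57 ± 0.08) and 2.39-fold higher under Repsox (log2 1.25 ± 0.08).

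The genes with the pattern most like each marker other than Icam1 were found among 10738 genes by the root mean square distance of centred log2 CPM over 8 libraries, as a description of likeness and nothing more. For Thy1 they were Stc1, Col6a2 and Cck, at distances of 0.34, 0.47 and 0.61, and Col6a2 stood at 322.8 CPM in WT under Repsox against 18.6 to 37.6 CPM in the other groups. For Cd44 they were Col8a1, Prss23 and Rgs8 (0.13, 0.17 and 0.23), each highest in WT under TGF-beta. For Epcam they were Stra6, Ocln and Sh3rf2 (0.19, 0.24 and 0.28), of which Ocln is a tight junction protein. For Alpl they were Srcin1, Rnf43 and Ppl (0.09, 0.14 and 0.20). For Fut4 they were Il17rd, Cd80 and Nfasc (0.28, 0.33 and 0.35), and for Fut9 Fam162a, Aldh5a1 and Hspb11 (0.16, 0.18 and 0.19). When likeness was measured by Pearson's r, the 3 genes of Thy1 were the same, 1 of 3 was shared for Epcam, Alpl and Fut4, and 0 of 3 for Cd44 and Fut9.

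Of the remaining cell type lists, 8 macrophage and blood markers summed to 19.3 to 79.5 CPM and 7 endothelial markers to 48.1 to 120.9 CPM over the 8 libraries. The macrophage sum was highest in K36M under Repsox and the endothelial sum in WT under TGF-beta. Csf1r, the macrophage growth factor receptor, and Cd68, a lysosomal glycoprotein, averaged 47.5 ± 0.519 and 29.9 ± 1.15 CPM in K36M under Repsox, the highest group mean of each, while Ptprc, the pan-leukocyte marker, was at 0 there. Emr1 was also at 0 in both K36M groups, Tyrobp in both TGF-beta groups and Cd52 in WT under TGF-beta, and of the endothelial list Emcn in both TGF-beta groups and Cldn5 in WT under TGF-beta. The part of such cells in any marker level was not tested.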

How the data were processed

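RNA was depleted of ribosomal RNA before sequencing, per the labels' protocols. The values used were the deposited counts, whole reads per gene in 1 table of 26930 genes for the 8 libraries. The authors used STAR 2.5.0, HTSeq 0.11.2 and edgeR with mm9, per the submitters' processing notes. The annotation and the strand setting of the counting are not given in the sources used here, so reads of antisense or overlapping genes are uncertain. Of the identifiers, 26763 were found in GENCODE vM1, which gave positions and exon lengths.

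The counts went into edgeR 4.0.16 (R 4.3.3), where 15789 genes passed filterByExpr, library sizes were adjusted by TMM, and 4 group means over 8 libraries were compared by quasi-likelihood F tests (4 residual and 17.45 prior degrees of freedom, common biological coefficient of variation 0.0702). Calls were made where p, adjusted by Benjamini-Hochberg over all tested genes, was below 0.05. The error beside a log2 fold change is its standard error, obtained by dividing the fold change by the root of its F. It borrows from all genes and can understate the spread where the 2 libraries of a group lay far apart as a ratio. In WT under TGF-beta this held for Epcam, Alpl (38.6 and 22.5 CPM), Cdh1 (41.1 and 23.1), Cldn7 (4.3 and 1.51) and Nanog (13.9 and 3.23). The first library was the higher for each of these genes, and the second for Tfcp2l1 (3.7 and 10.3 CPM). Levels are CPM, mean ± SD over 2 libraries. Whether the libraries of 2 groups overlapped is given as a description, and the share of all tested genes without overlap was not computed. The procedure was also run on simulated counts in which few genes changed, and only in K36M under TGF-beta. Many more genes differed between the real groups, so that run does not check the calls made here.

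The markers and the gene lists were chosen with earlier results of these data known, and the lists are described by counts and medians with no set test. Named list genes are those with the smallest adjusted p in each pairwise comparison, with the gene families of the markers, unless stated. Alternatives were RLE factors, library totals, no filter, DESeq2 1.42.0, limma-voom (limma 3.58.1), fits to the 4 libraries compared, a replicate block and leaving out each library. Icam4, Bglap and Map2 were listed and had no entry in the table. Some results that the rule for named genes would give are not reported here.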

Additional observations from a re-analysis of the deposited data

Results flagged for a closer look

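The medium effect differed between K36M and WT for each of the 7 markers, by the test of the interaction in edgeR's quasi-likelihood fit. The difference, TGF-beta against Repsox in K36M minus the same in WT, was log2 5.65 for Thy1 (adjusted p = 8.3e-18), the fibroblast glycoprotein, which was higher under TGF-beta in K36M and lower in WT. It was 4.07 for Epcam (adjusted p = 6.57e-13) and 2.64 for Icam1 (adjusted p = 1.6e-10), both with opposite signs in the 2 genotypes. It was 2.68 for Alpl (adjusted p = 1.25e-10) and 3.15 for Fut4 (adjusted p = 2.75e-05), each of which was called between media in 1 genotype. For Cd44 it was 0.43 (adjusted p = 0.00696), with the same sign in both genotypes, and for Fut9 0.57 (adjusted p = 0.0125). The calls for Cd44 and Fut9 were each lost under some of the alternatives, as given above. In the same test 51.0% of the 15789 genes were called.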

How the results depend on the processing

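The number of markers called in a comparison stayed within 1.5 times its value under every alternative that was run. Of 518 recomputed log2 fold changes of the markers, 500 kept their direction and their side of the threshold, 12 lost the call, 1 gained it and 5 changed sign without a call. The sign changes were Alpl for TGF-beta against Repsox in K36M, at 0.02 with RLE factors, 0.01 with library totals, 0.01 with DESeq2 and 0.04 without the second K36M library under TGF-beta, and Fut4 for the same in WT, at -0.04 without the second WT library under Repsox. Over all libraries left out in turn, these 2 log2 fold changes ran between -0.05 and 0.04 for Alpl and between -0.04 and 0.63 for Fut4. The cause was not tested. Library totals moved the median log2 fold change of all genes to 0.248 for K36M against WT under TGF-beta, -0.275 for TGF-beta against Repsox in WT and 0.314 for the interaction, against 0.051, -0.068 and 0.093 with TMM, and no marker changed its call. The replicate block left every count of markers as it was (7, 7, 6 and 5 in the pairwise comparisons), and Thy1 for K36M against WT under TGF-beta stood at 0.39 with it. Libraries with the same number did not deviate together (correlations -0.02 to 0.032), so the numbers were not taken as pairs. Depth limits Fut4 the most, at 9 to 97 counts in a library. Of 1410 recomputed values of named list genes, 1403 kept their call and 7 lost it, those of Itgal and Itgb2 between media in K36M.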
